A study of Mus musculus with 6 samples.

Results

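The BCL2 family decides whether a cell starts the mitochondrial pathway of apoptosis. Pro-survival members (BCL2, BCL-XL, MCL1) hold the pore-forming effectors BAX and BAK in check at the outer mitochondrial membrane, and BH3-only proteins (BIM, BID, BAD, PUMA, NOXA) either free the effectors from this restraint or activate them directly. Developing B cells and BCR::ABL1-driven leukemia cells are known to rely on BCL-XL and MCL1 for survival, and BIM is a main trigger of their death. Binding of CDK6 to chromatin was examined here at the genes of 10 named members, of 22028 protein-coding genes in all. The 3 pro-survival genes were Bcl2, Bcl2l1 (encoding BCL-XL) and Mcl1. The 7 pro-death genes were the effectors Bax and Bak1 and the BH3-only genes Bcl2l11 (BIM), Bid, Bad, Bbc3 (PUMA) and Pmaip1 (NOXA). The genes were chosen by name and by no cutoff on the data, but with earlier results of these data known.

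CDK6 binding was measured by ChIP-seq with an antibody against the HA tag in murine BCR::ABL1+ pre/pro-B cell lines. All lines came from bone marrow of Cdk6-/- C57BL/6 mice transformed by BCR-ABL (p185) from a retroviral vector, and carried either HA-tagged wildtype CDK6 (CDK6-WT, n = 2 libraries) or the HA-tagged kinase-inactive mutant CDK6-K43M (n = 2 libraries) from a further retroviral vector. The tagged protein was therefore overexpressed in cells without endogenous CDK6, and no sample of these cells without the tag was analysed here. The labels do not say whether the 2 libraries of a variant came from separate lines or cultures, so the p-values given below measure the spread between libraries, which may be technical.

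Each library had 1 list of MACS2 peaks, with between 34729 and 39797 peaks. The lists were compared by presence of a peak and by the percentile of a peak's −log10 q-value among all peaks of its own list, where 100 stands for the most significant peak. A gene's promoter was taken as 2000 bp before to 200 bp after any of its annotated transcript starts, and its window as the gene body with 20000 bp to each side. A gene was given a promoter percentile of 0 in a list without a promoter peak. Peaks from different lists that overlapped were joined into 1 region. A region with a peak in at least 3 of the 4 lists was counted as bound by both variants, and one with peaks in both libraries of a variant and in neither of the other as unique to that variant. Promoters of 8 of 8 B lineage genes, such as Pax5 and Igll1, had a region bound by both variants, against 0 of 8 genes of other tissues.

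CDK6 was found at the promoters of all 10 BCL2 family genes. Each had a promoter region bound by both variants, 3 of 3 pro-survival and 7 of 7 pro-death genes, against a background of 41.3% of protein-coding genes. Members mostly have CpG-rich promoters, with a CpG observed to expected ratio of 0.789 to 1.10 in 9 of them and 0.409 in Bak1, against a median of 0.696 over all genes. Among genes with a ratio of at least 0.6, the share with a bound promoter was 64.5%. The CDK6-WT lists had a promoter peak at 10 and 10 members, where the background was 47.0% of genes in replicate 1 and 40.1% in replicate 2. The CDK6-K43M lists had one at 10 and 9 members, with a background of 48.5% and 39.4%. The missing peak was that of Pmaip1 in CDK6-K43M replicate 2, so that 9 members had a promoter peak in all 4 lists, as had 33.2% of all genes. With so many genes bound, the count of members alone says little about their rank. By the mean percentile over the 4 lists, 5 of the 10 members lay above the median of the 9103 bound genes, which was 66.1.

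**Figure D1:**
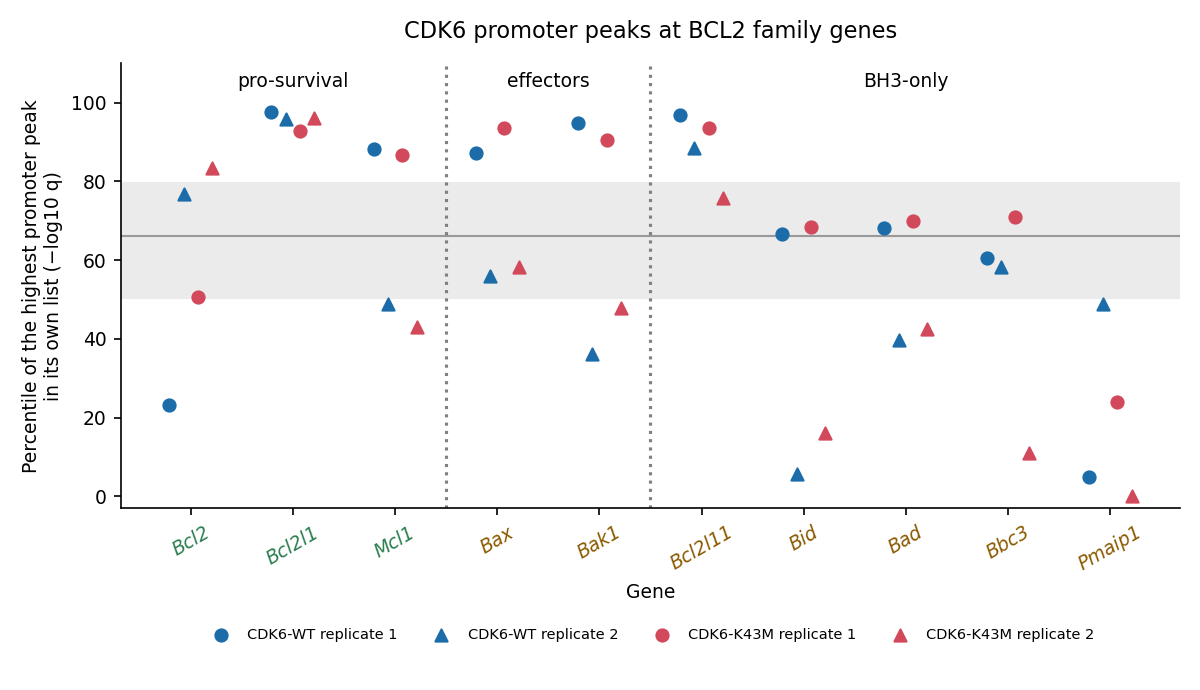
Percentile of the most significant promoter peak within its own list (y axis, 0 to 100, 0 where a list has no promoter peak) for each BCL2 family gene (x axis), with 1 point per library, circles for replicate 1 and triangles for replicate 2. The grey band and line give the quartiles (50.5 and 79.5) and median (66.1) of the mean percentile of the 9103 genes bound by both variants. Bcl2l1 lies above 92 in every library, whereas in 8 genes circles and triangles do not overlap, as in 80.3% of bound genes.

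Among the pro-survival genes, Bcl2l1 was the most strongly and most evenly occupied. Its promoter percentile was 97.6 and 95.8 with CDK6-WT (replicates 1 and 2), compared to 92.7 and 96.1 with CDK6-K43M. All 4 values were above 92, with a mean of 95.5 ± 2.05 (SD, n = 4), and 98.8% of the bound genes lay at or below this mean. The promoter region spans chr2:152830136-152831891 (mm10) on the minus-strand gene. The summit changed its place with the replicate number and not with the variant. It was at -22 bp and -10 bp from the 5′ end of the gene in the replicate 1 libraries of CDK6-WT and CDK6-K43M, and at 1024 bp and 1026 bp inside the gene in the replicate 2 libraries. The stretch before the 5′ end that held the upstream summit is printed on the strand of the gene, to show the CpG-rich sequence that was bound, at chr2:152831729-152831850.
Bcl2l1 promoter: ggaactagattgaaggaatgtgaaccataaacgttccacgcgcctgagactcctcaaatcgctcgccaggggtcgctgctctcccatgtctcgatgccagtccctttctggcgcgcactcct

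Bcl2l1 was also occupied within its introns. A region at 36935 bp from the 5′ end had percentiles of 88.2, 98.3, 96.4 and 98.3 (CDK6-WT replicates 1 and 2, then CDK6-K43M replicates 1 and 2), and of the 22979 regions bound by both variants in the genome 256 had a higher mean percentile. An intronic region at 15788 bp lay between 77.8 and 85.2 in the 4 lists. These sites were thus occupied in every library of both variants.

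Mcl1 encodes the short-lived pro-survival protein that lymphoid cells lose quickly when transcription stops. Its promoter percentile was 88.4 and 48.9 with CDK6-WT, compared to 86.7 and 43.01 with CDK6-K43M, high in replicate 1 and near the middle in replicate 2 for either variant. The mean of 66.7 ± 24.1 (SD, n = 4) was close to the median of bound genes. The promoter region spans chr3:95658220-95659807, and the stretch around its summit, which lay at -102 bp from the 5′ end, is printed on the plus strand (chr3:95658586-95658786) as an example of a GC-rich summit without any of the motif words searched.
Mcl1 promoter: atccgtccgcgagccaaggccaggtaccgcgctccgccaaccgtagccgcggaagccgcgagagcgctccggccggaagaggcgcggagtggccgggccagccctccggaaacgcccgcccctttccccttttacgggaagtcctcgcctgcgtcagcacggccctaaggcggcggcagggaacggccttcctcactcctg
Downstream of Mcl1, at 10008 bp from its 5′ end (chr3:95668542-95669605), a region was more even over the libraries than the promoter itself. It had percentiles of 74.9 and 83.0 with CDK6-WT, compared to 71.3 and 87.5 with CDK6-K43M. Its summit holds the forkhead word TGTTTAC, in capitals in the stretch chr3:95668696-95668896, which was found in 3.08% of bound regions outside promoters.
Mcl1 downstream: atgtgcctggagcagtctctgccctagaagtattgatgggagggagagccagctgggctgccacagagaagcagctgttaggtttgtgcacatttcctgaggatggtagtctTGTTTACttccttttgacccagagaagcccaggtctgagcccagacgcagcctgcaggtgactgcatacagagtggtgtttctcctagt

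Bcl2, the founding pro-survival gene, showed the opposite order of the replicates. Its promoter percentile was 23.3 and 76.7 with CDK6-WT, compared to 50.8 and 83.5 with CDK6-K43M, so the replicate 2 libraries were higher for both variants. The mean was 58.6 ± 27.4 (SD, n = 4). The same held in the long intron of Bcl2, at 101301 bp from the 5′ end (chr1:106612325-106613744), where the percentiles were 8.67 and 98.5 with CDK6-WT, compared to 15.01 and 96.7 with CDK6-K43M. It held again at 143136 bp (chr1:106570748-106571508), at 0 and 92.3 with CDK6-WT, compared to 37.1 and 97.5 with CDK6-K43M. The intronic region at 158615 bp was instead higher in replicate 1, at 71.9 and 21.6 with CDK6-WT, compared to 87.1 and 38.7 with CDK6-K43M. At the other 2 bound regions of the gene the variants did not share an order. The intronic region at 161210 bp had 21.3 and 41.5 with CDK6-WT, compared to 41.95 and 0 with CDK6-K43M, and the upstream region at -3132 bp had 18.7 and 0 with CDK6-WT, compared to 39.7 and 71.7 with CDK6-K43M. Both were absent from 1 list. Sites at this gene therefore differed in which replicate number gave the stronger peak, and CDK6-WT and CDK6-K43M followed the same order at 4 of the 6 bound regions.

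The effectors Bax and Bak1 had strong promoter peaks in replicate 1 and middling ones in replicate 2. Bax had percentiles of 87.2 and 56.1 with CDK6-WT, compared to 93.7 and 58.4 with CDK6-K43M. The summits lay within 43 bp of the 5′ end in all 4 libraries, and the promoter region (chr7:45466425-45467119) was the only one of 9 regions in the window of Bax that was bound by both variants. The 98 bases just before the 5′ end, within this region, held words of NRF-1 (GCGCATGCG), SP1 (GGGGCGGGG on the other strand) and the E-box (CACGTG), shown in capitals on the strand of the gene (chr7:45466899-45466996).
Bax promoter: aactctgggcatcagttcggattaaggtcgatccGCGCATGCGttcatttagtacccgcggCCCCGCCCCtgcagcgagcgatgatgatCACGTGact
These words were found within 100 bp of the summit in 6.87% (NRF-1), 12.5% (SP1) and 8.53% (E-box) of the 9900 bound promoter regions. Bax was the only member of the 9 searched with an NRF-1 or E-box word there, and SP1 words were also found at Bid and Bad.

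Bak1 had promoter percentiles of 94.8 and 36.3 with CDK6-WT, compared to 90.6 and 47.8 with CDK6-K43M, the widest spread between replicate numbers among the pro-survival and effector genes. The promoter region (chr17:27028238-27028898) also overlaps the promoter of the neighbouring gene Ggnbp1, so it cannot be assigned to Bak1 alone. Upstream of Bak1, a cluster of 3 regions at -11432 bp, -12881 bp and -13946 bp was bound in all 4 lists. The middle one (chr17:27041201-27042089) had percentiles of 84.7 and 83.0 with CDK6-WT, compared to 93.1 and 75.9 with CDK6-K43M. Its neighbours had mean percentiles of 80.2 and 75.1. All 3 thus had a higher mean than the Bak1 promoter, at 67.4. The summit sequence of the middle region, on the strand of Bak1 (chr17:27041790-27041990), held none of the 9 motifs searched.
Bak1 upstream: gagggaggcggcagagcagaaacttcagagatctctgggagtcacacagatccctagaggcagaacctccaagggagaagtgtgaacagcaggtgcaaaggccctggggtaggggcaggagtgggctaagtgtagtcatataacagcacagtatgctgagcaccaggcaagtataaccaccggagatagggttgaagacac

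The window of Bak1 held the only variant-unique region near any member, 16475 bp from the 5′ end and past the end of the gene (chr17:27012366-27012662). It had a peak in both CDK6-WT libraries, with percentiles of 48.0 and 50.1 and 19 and 16 reads at the summit, and none in the CDK6-K43M libraries. Windows with at least 1 region unique to CDK6-WT made up 1.29% of all genes, and 1 of 10 members had one. Neighbouring regions lay 109 bp to one side, with peaks in both replicate 1 libraries, and 26 bp to the other, with a peak in CDK6-K43M replicate 1. CDK6-K43M replicate 1 thus had peaks on both sides of the region. Regions unique to CDK6-K43M were found in 0 of 10 windows, against 4.33% of all genes.

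Among the BH3-only genes, Bcl2l11 stood highest. BIM, its product, binds all pro-survival members and can activate the effectors. Its promoter percentile was 97.0 and 88.5 with CDK6-WT, compared to 93.7 and 75.9 with CDK6-K43M, with a mean of 88.8 ± 9.26 (SD, n = 4), and 91.7% of bound genes lay at or below this mean. The promoter held 2 regions bound in all 4 lists. The region at -217 bp (chr2:128125529-128126275) had percentiles of 97.0 and 77.8 with CDK6-WT, compared to 93.7 and 53.6 with CDK6-K43M. The region at 1561 bp inside the gene (chr2:128127034-128128252), by a further transcript start, was more even, at 80.7 and 88.5 with CDK6-WT, compared to 80.3 and 75.9 with CDK6-K43M. The replicate 1 lists were thus led by the upstream region and the replicate 2 lists by the one inside the gene, for both variants. The summit stretch of the second region, on the plus strand (chr2:128127499-128127699), holds an NFY word (CCAAT) near its start. This word was found in 23.8% of bound promoter regions and at none of the other members searched.
Bcl2l11 promoter: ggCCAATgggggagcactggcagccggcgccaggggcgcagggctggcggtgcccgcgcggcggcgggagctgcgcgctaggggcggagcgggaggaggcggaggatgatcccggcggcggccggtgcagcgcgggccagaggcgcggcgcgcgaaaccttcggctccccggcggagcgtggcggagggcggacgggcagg

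The other BH3-only genes ranked lower. Bid, which couples death receptors to mitochondria, had promoter percentiles of 66.6 and 5.63 with CDK6-WT, compared to 68.5 and 16.2 with CDK6-K43M. This promoter region also overlaps the promoter of the gene model Gm44260, so it cannot be assigned to Bid alone. A region 1533 bp inside Bid, also in the promoter of Gm44260, was steadier. It had 63.1 and 76.7 with CDK6-WT, compared to 69.9 and 64.0 with CDK6-K43M. Bad, a sensitiser that binds BCL2 and BCL-XL, had 68.2 and 39.8 with CDK6-WT, compared to 69.9 and 42.6 with CDK6-K43M. Its promoter regions also overlap the promoter of Gpr137, and the peak of CDK6-WT replicate 2 lay in the adjoining promoter region rather than in the one at the 5′ end.

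Bbc3 and Pmaip1 encode PUMA and NOXA, both known as targets of p53. Bbc3 had promoter percentiles of 60.6 and 58.1 with CDK6-WT, compared to 70.9 and 11.1 with CDK6-K43M, and CDK6-K43M replicate 2 stood apart from the other 3. Pmaip1 had 5.05 and 48.9 with CDK6-WT, compared to 23.98 and 0 with CDK6-K43M, and 1.18% of bound genes lay at or below its mean of 19.5 ± 22.2 (SD, n = 4). Both genes had upstream regions with a higher mean than their promoters.

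At Pmaip1, 4 upstream regions were bound by both variants, at -5052 bp, -6142 bp, -10631 bp and -11833 bp. The one at -10631 bp had percentiles of 95.7 and 97.2 with CDK6-WT, compared to 88.3 and 90.02 with CDK6-K43M, and 634 of the 22979 bound regions had a higher mean. Of the 10 members, the one with the lowest promoter mean thus had one of the highest distal regions. At Bbc3, 3 upstream regions between -11404 bp and -13408 bp were bound by both variants. The farthest (chr7:16294427-16295221) had percentiles of 92.4 and 0 with CDK6-WT, compared to 94.4 and 65.5 with CDK6-K43M. Its summit stretch on the plus strand (chr7:16294885-16295085) holds an NFY word on the other strand, in capitals, as did 16.4% of bound regions outside promoters.
Bbc3 upstream: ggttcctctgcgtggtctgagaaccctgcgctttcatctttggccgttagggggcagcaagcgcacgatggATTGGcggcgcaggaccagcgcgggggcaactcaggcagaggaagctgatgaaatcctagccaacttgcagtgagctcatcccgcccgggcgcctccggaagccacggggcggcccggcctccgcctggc

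**Figure D2:**
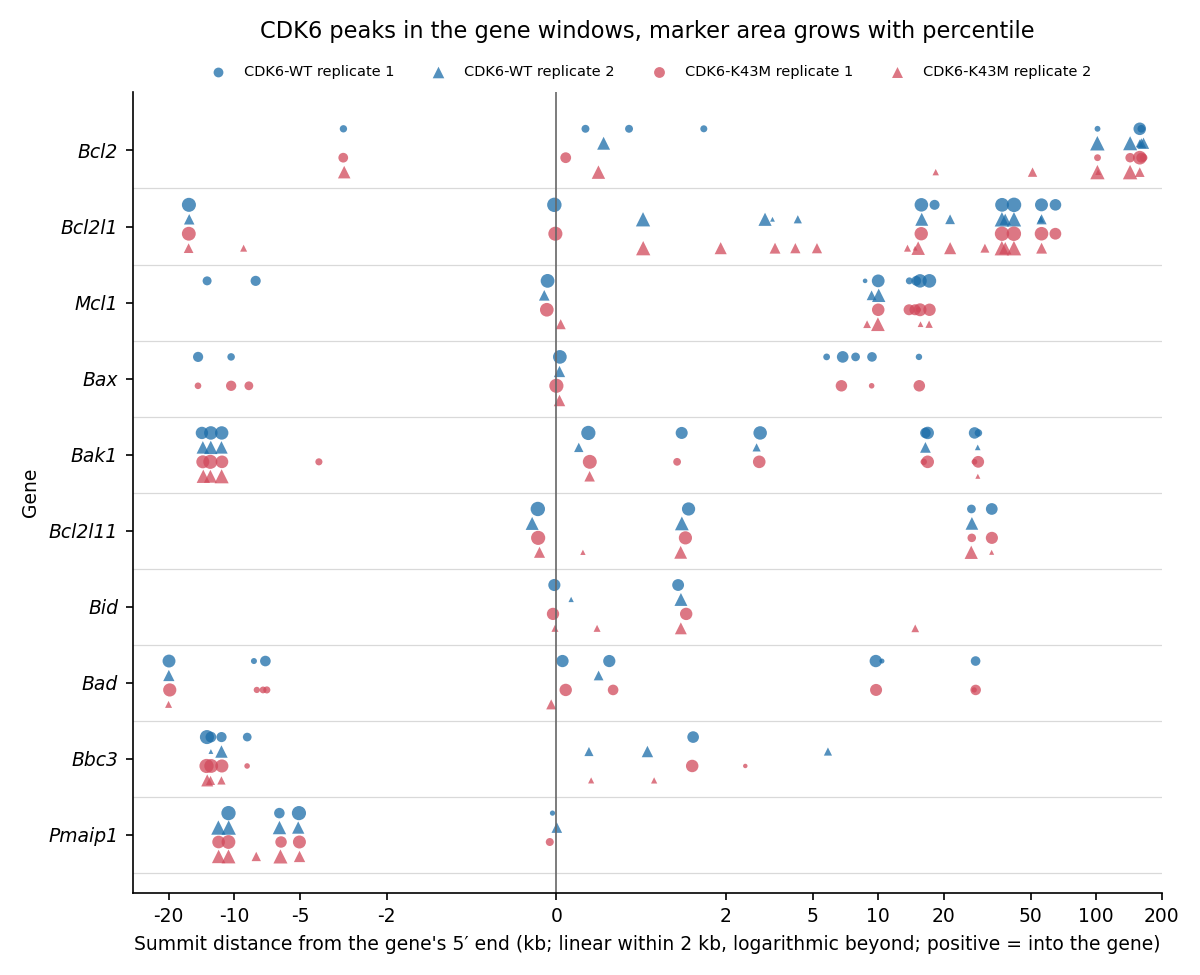
Position of every peak in the windows of the 10 genes (rows), as the distance of its summit from the 5′ end of the gene in kb (x axis, linear within 2 kb and logarithmic beyond, positive values lie towards and past the end of the gene). Each gene has 1 line per library, and the marker area grows with the percentile of the peak. The intronic sites of Bcl2l1 and the upstream clusters of Bak1, Bbc3 and Pmaip1 recur in the libraries of both variants.

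The 10 windows together held 96 merged regions, of which 41 were bound by both variants and 29 had a peak in all 4 lists. In the genome 22979 of 56748 merged regions were bound by both variants, so the share in the windows was close to that of all regions. Every member had at least 1 region bound by both variants in its window, as had 60.3% of all protein-coding genes. For the members this follows from their bound promoters, which lie in the windows, and is no further result. Bax had 1 and Bcl2, Bcl2l1 and Bak1 had 6 each. The density was 5.58 bound regions per 100 kb of window over the members and 1.91 per 100 kb pooled over all protein-coding genes. The pooled value includes genes without a bound promoter, so these densities are not of like genes. Of the 41 bound regions, 12 were in the promoters of the members, 11 upstream, 9 in introns, 5 downstream, 1 in an exon and 3 in the promoter of another gene, among them Tpx2 in the window of Bcl2l1 and Esrra in that of Bad. Neighbouring genes thus contributed to the windows.

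The question of the variant comparison was whether CDK6 without kinase activity occupies the same sites. The mean promoter percentile over the members was 68.9 and 55.5 in the CDK6-WT libraries and 74.1 and 47.5 in the CDK6-K43M libraries. The CDK6-WT mean was 62.2 ± 9.47 and the CDK6-K43M mean 60.8 ± 18.9 (SD, n = 2 each). The difference of -1.38 was smaller than the spread within either variant (exact two-sided permutation p = 1, where 0.33 is the smallest p that 2 libraries against 2 allow). Within replicate 1 CDK6-K43M was higher by 5.27, and within replicate 2 the difference was -8.03. Peaks in the windows numbered 71 and 54 with CDK6-WT, compared to 72 and 60 with CDK6-K43M, a difference of 3.5 (exact permutation p = 0.67). The number of members with a promoter peak differed by -0.5 on average (exact permutation p = 1).

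Single members did not separate the variants either. The values of the CDK6-WT and CDK6-K43M libraries were separate in 0 of 10 genes, against 9.82% of bound genes. Those of replicates 1 and 2 were separate in 8 of 10, all but Bcl2l1 and Pmaip1, against 80.3% of bound genes. Both counts are near the shares of all bound genes and show no trait of the members. CDK6-K43M was higher in both replicate numbers at 4 members (28.8% of bound genes) and lower in both at 2 (21.5%). Replicate 1 was higher than replicate 2 at 7 members, the exceptions being Bcl2, Bcl2l1 and Pmaip1. This order was common in the genome, with 84.2% of the 9103 bound genes higher in replicate 1 and a median gap of 24.7 percentile points. The labels do not say what the replicate number stands for.

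Read numbers at the summit gave a measure that does not rest on rank. They were solved from each peak's fold enrichment and −log10 p-value. For the ratios, but not for the read numbers given here, the CDK6-K43M numbers were divided by the ratio of the library depths. This depth ratio was 1.19 in replicate 1 and 0.911 in replicate 2, and the depths were inferred from the lists rather than counted. At the promoter of Bcl2l1, 52 and 38 reads were found with CDK6-WT, compared to 50 and 35 with CDK6-K43M. Mcl1 had 51 and 16 with CDK6-WT, compared to 53 and 13 with CDK6-K43M, and Bak1 had 45 and 14 with CDK6-WT, compared to 46 and 18 with CDK6-K43M. The gap between replicate numbers at Mcl1 and Bak1 was present in the reads as well, while within a replicate number the variants were close. The reads come from the same lists as the percentiles and are not independent of them. At Mcl1 the local background also differed, at 5 and 1.62 with CDK6-WT, compared to 4 and 1.59 with CDK6-K43M. Fold enrichment at Mcl1 was 8.41 and 6.005 with CDK6-WT, compared to 8.81 and 5.4 with CDK6-K43M, a smaller gap than in the reads. At Bak1 fold enrichment was 14.9 and 5.35 with CDK6-WT, compared to 12.8 and 4.78 with CDK6-K43M.

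In replicate 1 the depth-scaled ratio of CDK6-K43M to CDK6-WT had a median of 1.05 over the 10 members, from 0.805 at Bcl2l1 to 1.29 at Bcl2. The 95% interval, which covers counting error only, held 1 at all 10. Each list entered with its own most significant summit in the region, so the reads need not come from the same place. At Bcl2 in replicate 1 the summits lay at 345 bp with CDK6-WT and 112 bp with CDK6-K43M. In replicate 2 the ratio could be computed for 8 members, with a median of 0.990, from 0.604 at Bbc3 to 1.41 at Bak1, and the interval held 1 at all 8. The same ratio over all promoter regions had a median of 1.05 (n = 9496) and 0.960 (n = 7902). The intervals are wide: that of Bax in replicate 1 ran from 0.787 to 2.03 and that of Bid in replicate 2 from 0.410 to 2.94, so changes of this size were not detectable at this depth. Bad and Pmaip1 had no ratio in replicate 2 because 1 of the lists had no peak there.

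**Figure D3:**
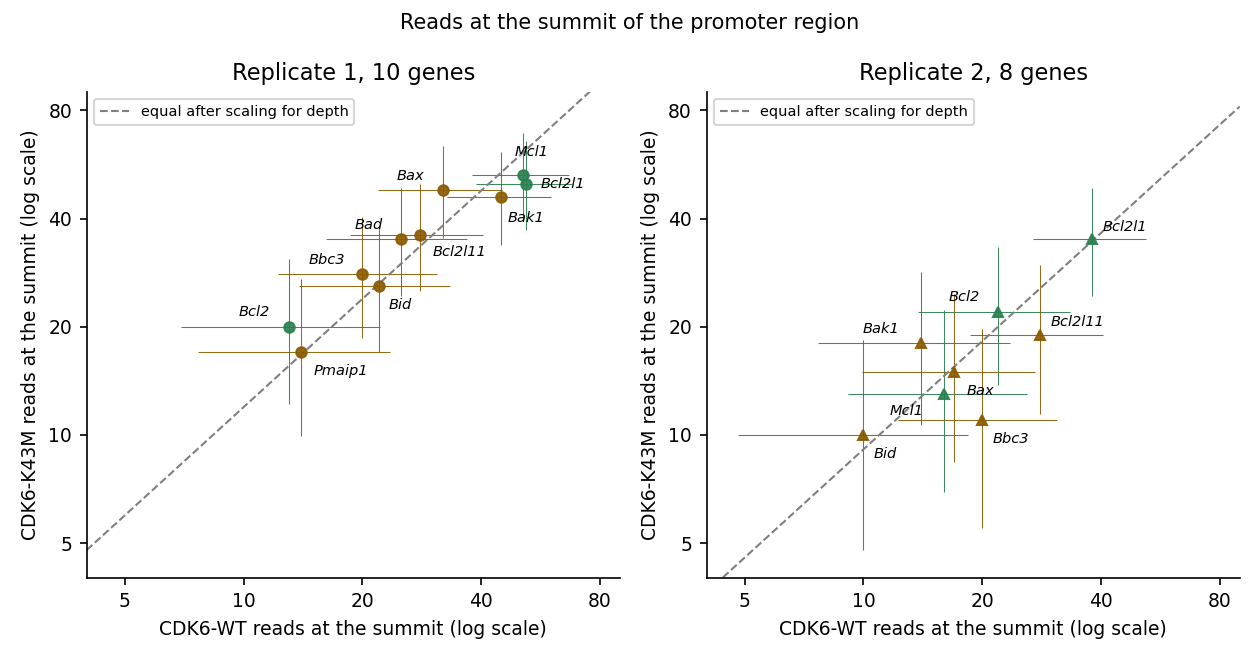
Reads at the summit of the promoter region in the CDK6-WT library (x axis, log scale) and the CDK6-K43M library (y axis, log scale), for replicate 1 (left, 10 genes) and replicate 2 (right, 8 genes), with pro-survival genes in green and pro-death genes in brown. Bars are exact 95% Poisson intervals for counting error, and the dashed line marks equal reads after scaling for depth. The points lie along the line in both panels.

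Over all bound regions of the windows, promoters included, the ratio could be computed for 39 regions in replicate 1 and 31 in replicate 2, with medians of 1.02 and 1.01. The interval held 1 at 38 of 39 and 31 of 31 regions. The exception was an upstream region of Bbc3 at -12764 bp, where CDK6-WT replicate 1 had 19 reads and CDK6-K43M replicate 1 had 44 (ratio 1.94, interval 1.11 to 3.52). In replicate 2 the ratio there was 1.25 (0.574 to 2.77).

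Pro-survival and pro-death genes were then compared. The pro-survival genes had mean promoter percentiles of 69.7 and 73.8 with CDK6-WT, compared to 76.7 and 74.2 with CDK6-K43M. For the pro-death genes these were 68.5 and 47.6 with CDK6-WT, compared to 73.0 and 36.0 with CDK6-K43M. The pro-survival mean was higher in 4 of 4 libraries, but by 1.23 and 3.67 in the replicate 1 libraries and by 26.2 and 38.2 in the replicate 2 libraries. The average difference of 17.3 ± 17.9 (SD, n = 4) was therefore no larger than its spread between libraries. The 3 pro-survival genes ranged over much of the scale in each list, and all pro-death genes but Pmaip1 lay above Bcl2 in both replicate 1 lists. Within the pro-death genes the effectors averaged 70.6 ± 24.4 and the BH3-only genes 50.6 ± 15.9 (SD over 4 libraries). With the wider family lists described below, the difference was -16.5, but 3 of the 5 added pro-survival genes are the Bcl2a1 copies, which entered as 0 although binding there could not be assessed. Without these 3, an alternative chosen after seeing the data, it was 0.885, which gives no order of the sets. No test was made over genes, since members are not replicates.

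**Figure D4:**
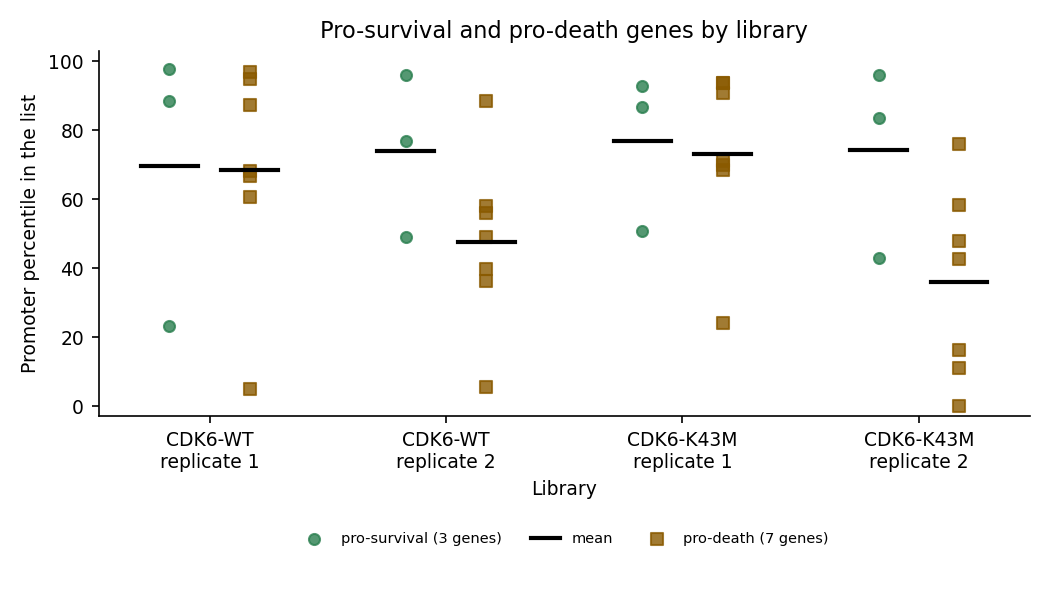
Promoter percentile (y axis, 0 to 100) of the 3 pro-survival genes (green circles) and the 7 pro-death genes (brown squares) in each of the 4 libraries (x axis), with the mean of each set as a black line. The means are close in the replicate 1 libraries (differences of 1.23 and 3.67) and farther apart in the replicate 2 libraries (26.2 and 38.2).

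By density the order was the reverse, with 4.55 bound regions per 100 kb of window at the pro-survival genes and 6.53 at the pro-death genes. This difference of -1.98 was close to 0 with the top 10000 peaks of each list (-0.145), and was -1.27 without CDK6-WT replicate 1 and -1.29 without CDK6-K43M replicate 1. In peaks per list, the pro-survival windows (351.5 kb) held 27 and 27 with CDK6-WT, compared to 23 and 32 with CDK6-K43M. The pro-death windows (382.7 kb) held 44 and 27 with CDK6-WT, compared to 49 and 28 with CDK6-K43M. Per kb the pro-death genes were thus higher in the replicate 1 libraries and lower in the replicate 2 libraries. The difference in peaks per 100 kb had an SD of 3.77 over the 4 libraries. The window of Bcl2 is 216 kb long and holds 6 bound regions, which gives 2.78 per 100 kb, while Mcl1 and Bcl2l1 had 9.01 and 6.59. Bak1 was the densest at 12.2 per 100 kb. Of the 6 regions in all windows found only in the replicate 2 libraries, 5 were in the window of Bcl2l1. Of the 16 regions found only in the replicate 1 libraries, 5 were in the window of Bax, 4 of Bad, 3 of Bak1 and 2 of Mcl1. Promoters of other genes held 7 of these 16. The share of such regions over all genes is not given here, so the counts show no trait of the members.

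Further members of the family were examined in the same way. Of 5 further pro-survival genes, Bcl2l2 alone had a promoter region bound by both variants, at percentiles of 12.2 and 14.2 with CDK6-WT, compared to 16.9 and 0 with CDK6-K43M. Bcl2l10 had no promoter peak in any list. The same was true of Bcl2a1a, Bcl2a1b and Bcl2a1d, near-identical copies whose reads the removal of multimapping reads may have discarded. The loss of reads was not tested, so binding there could not be assessed. Of 4 further pro-death genes, Bmf, a BH3-only gene, had 84.3 and 71.4 with CDK6-WT, compared to 90.04 and 77.01 with CDK6-K43M, and the BAX-like gene Bok had a bound region with a mean percentile of 25.2. The BH3-only genes Bik and Hrk had no promoter peak in any list.

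Downstream of the BCL2 family, cytochrome c and APAF1 activate the initiator caspase. Of 13 genes of this mitochondrial step, 11 had a promoter region bound by both variants, and Casp6, an executioner caspase gene, was among those without one. Endog, one of the 11, had promoter peaks in the replicate 1 lists alone (71.9 with CDK6-WT and 70.9 with CDK6-K43M), and the replicate 2 peaks of its region lay just outside the promoter. Htra2, which encodes a protease released from mitochondria, had percentiles of 99.9 and 89.3 with CDK6-WT, compared to 99.9 and 88.4 with CDK6-K43M. Apaf1 had 99.9 and 88.5 with CDK6-WT, compared to 99.8 and 68.9 with CDK6-K43M. Of 5 inhibitors of apoptosis, 4 were bound, with Birc5 (survivin) at 99.99 and 95.03 with CDK6-WT, compared to 99.98 and 96.8 with CDK6-K43M, and Xiap without a peak. In the death receptor pathway 5 of 8 genes were bound, among them Casp8 with a mean of 90.6, and Fas, Tnfrsf1a and Tnfrsf10b, all of which encode receptors, were not. These shares stand beside the 41.3% of all protein-coding genes, and were not tested.

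**Figure D5:**
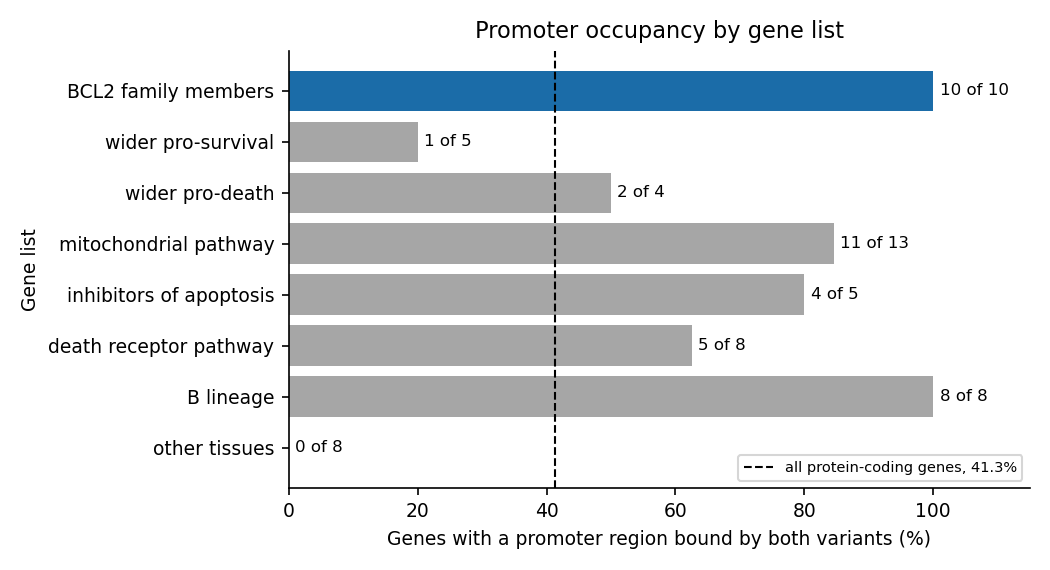
Share of genes with a promoter region bound by both variants (x axis, percent) in the BCL2 family members and 7 comparison lists (y axis), with the number of bound genes at the end of each bar. The dashed line marks the 41.3% of all protein-coding genes. The family members and the B lineage list reach 10 of 10 and 8 of 8, and the list of other tissues 0 of 8.

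The count of bound members depended on the threshold. At a minimum −log10 q of 5, 8 members had a promoter region bound by both variants, all but Bid and Pmaip1, when 33.8% of genes did. At a minimum of 10, 2 members were left, Bcl2l1 and Bcl2l11, against 17.1% of genes. The same 2 members were left with the top 10000 peaks of each list, against 12.7% of genes. One of them is pro-survival and the other pro-death.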

How the data were processed

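Per the labels and the methods of the study, the authors trimmed reads (Trimmomatic 0.36), aligned them to mm10 (BWA 0.7.15), filtered out blacklisted regions and reads that mapped poorly or to several places, and called peaks per library with MACS2 2.1.0. The deposited lists give each peak's score, fold enrichment (a ratio), −log10 p-value, −log10 q-value and, as other information, its summit. The 2 input libraries were not analysed here.

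Peaks that shared 1 bp or more were joined across the lists and assigned to GENCODE M21 genes, whereas the authors used M13. Percentiles were average ranks of the −log10 q. Reads at the summit were solved from fold enrichment and −log10 p. With the scaling found for each list, 100% of peaks gave a whole number within 0.001 of the −log10 p. The lists hold no read totals, so depth is known only in relative terms, from 9.56 to 12.0 reads per kb of effective genome. It was inferred from the lowest local background of a list, divided by its scaling and its smallest peak width. This takes them as the genome background and the fragment length, which was not tested, and all depth-scaled ratios rest on it. Read intervals are exact Poisson, and those of ratios exact conditional (95%). A ratio needs a peak in both lists, which leaves out the weakest sites. The variants were compared by an exact permutation test (two-sided, 6 ways to assign the libraries). Merging, overlap and read recovery were tested on simulated data.

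Motif words were searched on both strands within 100 bp of the most significant summit, in RefSeq's GRCm38.p6 sequence. The words were ETS (CCGGAAGT), NRF-1 (GCGCATGCG or GCGCACGCG), SP1 (GGGGCGGGG), NFY (CCAAT), RUNX (TGNGGTN with T or C at either N), STAT (TTCNNNGAA), FOXO (TGTTTAC), E-box (CACGTG) and CRE (TGACGTCA). Stretches annotated as UTR and the sequence of Pmaip1 are not printed. Beside the words given with the results, the promoter windows held an ETS word at Bcl2l1 (7.88% of bound promoter regions) and RUNX (11.2%), STAT (5.27%), FOXO (1.72%) and CRE words (2.74%) at 0 of 9 members. Windows outside promoters held an NFY word at Bad, and ETS (0.726%), NRF-1 (0.434%), SP1 (0.960%), RUNX (21.7%), E-box (4.89%) and CRE words (0.426%) at 0 of 9. These percentages are over regions bound by both variants. The windows searched outside promoters at Bax, Bid and Bad lay in regions that were not bound by both, so they are not of like regions.

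The members, gene lists and motifs were chosen with earlier results of these data known. The text names all 10 members, their strongest region in and outside promoters, all variant-unique regions, and listed genes without a bound promoter, except for some items that are not reported here. Other genes and regions were named after their values were seen. Python 3.11.15, numpy 2.4.6, pandas 2.3.3 and scipy 1.17.1 were used.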

Additional observations from a re-analysis of the deposited data

How the results depend on the processing

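Alternatives covered the threshold on the −log10 q, the promoter and window sizes, the ranking, the definition of a shared region, wider gene lists, the replicate block and leaving out each library. Of the 105 values, 94 kept their direction, 68 of them within 1.5 times the reported value and 26 beyond it, 8 changed sign and 3 were 0. Many of the 105 are counts of members or regions, which cannot turn negative. The replicate block gives the same differences by construction. Such values kept their direction by necessity, so the 94 are no measure of stability, and all 8 sign changes fell among differences. With a minimum −log10 q of 10, and also with the top 10000 peaks per list, the members with a promoter region bound by both numbered 2, with 1 pro-survival and 1 pro-death gene. The bound regions in the windows fell to 15 and 11, and rose to 63 with windows of 50000 bp to each side. The difference in window peaks between CDK6-K43M and CDK6-WT turned from 3.5 to -5 at a minimum −log10 q of 5, to -2 at 10 and to -4 with the top 10000 peaks. Without 1 library this difference ran from -5 to 12, and that in mean promoter percentile from -14.7 to 11.96. The latter was 5.31 without CDK6-WT replicate 1 and 11.96 without CDK6-K43M replicate 2, and the former was -5 without CDK6-WT replicate 2 and -2.5 without CDK6-K43M replicate 1. With the wider family lists, the pro-survival minus pro-death difference in promoter percentile went from 17.3 to -16.5, and to 0.885 without the 3 Bcl2a1 copies, which could not be assessed (an alternative chosen after seeing the data). The difference in bound regions per 100 kb went from -1.98 to -0.145 with the top 10000 peaks and to -1.19 at a minimum −log10 q of 10, and without 1 library ran from -2.07 to -1.27. The causes of the other changes were not tested. Leaving out a library, with a peak then required in all 3 remaining lists, gave 8 to 10 bound members, and the members lost were Bad and Pmaip1.

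With the replicate number as a block (replicate block), the differences were the same by construction, -0.5 members with a promoter peak (exact permutation p = 1), -1.38 percentile points (p = 1) and 3.5 window peaks (p = 0.5, the smallest that 2 pairs allow). The percentile gaps between replicates 1 and 2 of CDK6-WT and of CDK6-K43M had a correlation of 0.677 over the 22979 bound regions, which share libraries and are not independent. With 2 pairs and no label for the number, a pairing cannot be established. The few libraries and the 10 to 53 reads at promoter summits limit what differences can be seen.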
